A study of Mus musculus with 6 samples.

Results

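Scavenger and particle uptake receptors are the surface proteins with which macrophages and some endothelial cells bind and internalise inhaled particles, modified lipoproteins, free haemoglobin and dying cells. The mRNAs of 10 genes were chosen by symbol: Marco, Msr1, Olr1, Colec12, Cd36, Scarb1, Stab1, Cd163, Cd5l and Mertk. Of these, Cd5l encodes a secreted protein and is counted with the receptors here. All 10 were found among the 17973 genes of the mRNA count table, and all 10 were among the 15808 genes with enough counts to be tested. Crystalline silica is taken up in the lung mainly by alveolar macrophages, and Marco and Msr1, both class A scavenger receptors with a collagen-like stalk, are the receptors best known for binding silica. Cd36 and Scarb1 belong to class B and handle fatty acids and high density lipoprotein. Mertk is a receptor tyrosine kinase that recognises dying cells through the bridging proteins Gas6 and protein S.

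Total RNA came from whole lungs of C57BL/6 mice, with 3 control libraries (C7, C8 and C9) and 3 libraries from lungs with silicosis (N129, N136 and N138). Mice of the silicosis group had been given silica by the trachea on a single occasion, 8 mg suspended in a volume of 40 µL of saline, and tissue was taken 90 days later and frozen. Sterile saline is named for the comparison samples. The sources used here do not give age, sex, the number of mice behind a library or any pooling, so p-values measure the spread between these libraries, which may be in part technical. The question put to the data was how the mRNAs of the uptake receptors differ between silicotic and control lung.

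The libraries held between 33698920 and 44000748 counts, and no library of a group repeated another within counting error (chi-square per degree of freedom from 15.02 to 78.95). The labelled tissue was checked with Sftpc, the surfactant protein of alveolar type 2 cells, which lay between 7553 and 11749 CPM in the 6 libraries. CPM are counts scaled to a library total of 1000000 after TMM adjustment, a scaling that centres most genes on no change. Fold changes are silicosis over control on the log2 scale, with the standard error (SE). A gene was called when the edgeR quasi-likelihood test gave a Benjamini-Hochberg adjusted p under 0.05 over all 15808 tested genes. In whole tissue, fewer cells of a type and less RNA per cell cannot be told apart.

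The receptors did not move as a group. Msr1 and Olr1 rose, Cd163 and Mertk fell, and the other 6 did not pass the test. The median log2 fold change of the 10 genes was -0.07, and that of all tested genes was 0.02. The 4 calls of 10 compare with 31.8% of all tested genes called in either direction, 15.3% higher and 16.5% lower, so the number of calls was near the background. For 5 of the 10 the groups did not overlap, against 47.7% of all tested genes. These were 2 genes higher and 3 lower in silicosis, against 23.7% and 24% of tested genes. Msr1 and Olr1 were called at 2-fold or more, as were 5.39% of tested genes, and Cd163 was called at 2-fold or more lower, as were 3.03%.

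**Figure D1:**
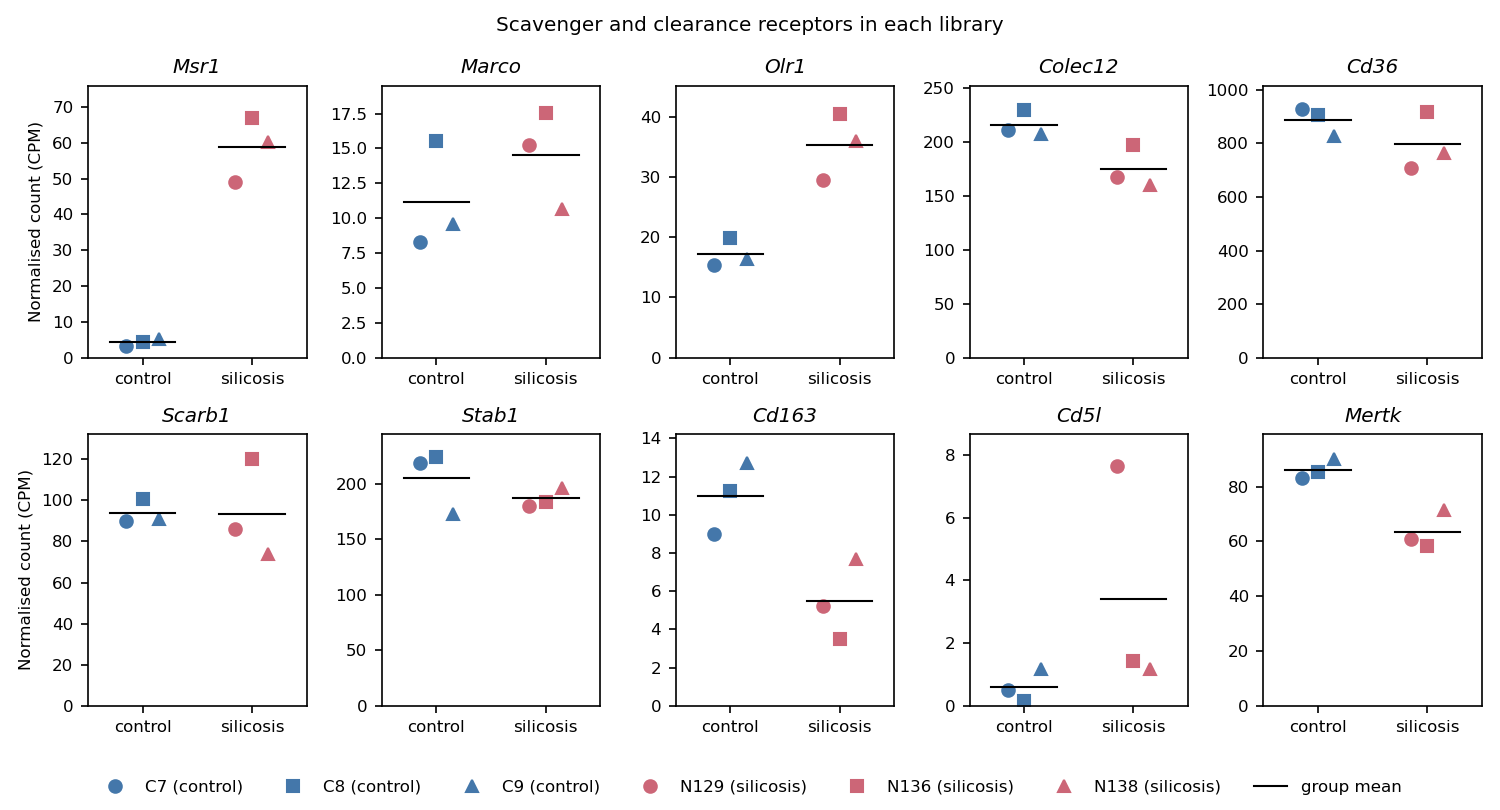
Normalised count (CPM, linear axis from 0) of each receptor in the 3 control and 3 silicosis libraries; each point is 1 library and each bar the group mean. Msr1 lies between 3.35 and 5.11 CPM in control and between 49.1 and 67.1 in silicosis, whereas Marco, Cd36, Scarb1, Stab1 and Cd5l overlap between groups.

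The stretch of 250 bases before the transcription start is shown for a receptor that rose and for a receptor that fell, so that the sequences can be read beside their values. The sequences are those of RefSeq on GRCm38.p6, an earlier build than the GRCm39 named by the submitters. RefSeq entries were matched for 7 of the 10 genes by symbol; Msr1, Scarb1 and Colec12 were not matched. Olr1 is at chr6:129507166-129507415 on the minus strand and Cd163 at chr6:124304401-124304650 on the plus strand. Capitals mark matches on either strand to GAGGAA, a core bound by the myeloid factor PU.1, and to TGANTCA, bound by AP-1.
Olr1: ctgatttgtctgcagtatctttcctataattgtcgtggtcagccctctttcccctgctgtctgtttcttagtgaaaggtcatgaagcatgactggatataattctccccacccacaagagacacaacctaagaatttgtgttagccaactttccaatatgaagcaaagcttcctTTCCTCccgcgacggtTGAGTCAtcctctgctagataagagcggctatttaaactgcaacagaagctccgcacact
Cd163: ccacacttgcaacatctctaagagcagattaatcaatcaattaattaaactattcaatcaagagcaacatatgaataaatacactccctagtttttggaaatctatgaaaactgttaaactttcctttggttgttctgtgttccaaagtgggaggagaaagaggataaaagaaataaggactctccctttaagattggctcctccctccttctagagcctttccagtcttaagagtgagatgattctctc

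The Olr1 stretch held 1 match to the PU.1 core, read on the opposite strand and starting 76 bases before the start site, and 1 to the AP-1 motif, starting 60 bases before it. The Cd163 stretch held neither. The C/EBP motif TTNNGCAA was searched as well and had no match in the 7 receptor sequences. The PU.1 core was present in 4 of the 7 receptor sequences, those of Marco, Stab1, Olr1 and Cd5l, and in 23.3% of all 32851 sequences of the same length. The AP-1 motif was present in 1 of the 7 and in 6.75% of all, and the C/EBP motif in 9.56% of all. These matches describe letters only and no binding was measured.

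Msr1, the class A receptor also called scavenger receptor A, had the largest change among the 10 genes. It was at 3.35, 4.43 and 5.11 CPM in C7, C8 and C9, and at 49.1, 67.1 and 60.3 CPM in N129, N136 and N138. The lowest silicosis library was far above the highest control library. The mean went from 4.30 ± 0.888 to 58.8 ± 9.10 CPM (SD, n = 3), a 13.7-fold rise (a log2 change of 3.77 with SE 0.19, adjusted p = 6.30e-06 by edgeR). This placed Msr1 at rank 92 from the top among the 15808 tested genes. Leaving out any single library left the log2 fold change between 3.62 and 3.91.

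Marco, like Msr1 a class A receptor, did not pass the test. Its values were 8.27, 15.5 and 9.60 CPM in C7, C8 and C9, and 15.3, 17.6 and 10.7 CPM in N129, N136 and N138. The groups overlapped, since C8 was above N129 and N138. The log2 fold change was 0.38 (SE 0.26, 95% interval -0.20 to 0.97, edgeR adjusted p = 0.291). Without C8 it was 0.70 (adjusted p = 0.0644), without C7 it was 0.20 and without N136 it was 0.22.

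The pair of silica-binding receptors was also set against each other within each library, a comparison chosen after the values were seen. Msr1 counts were 0.405, 0.285 and 0.533 times those of Marco in C7, C8 and C9, and 3.22, 3.82 and 5.65 times in N129, N136 and N138. Marco was the more counted of the pair in the 3 control libraries and Msr1 in the 3 silicosis libraries. The log2 ratio differed by 3.38 between the groups (two-sided exact permutation p = 0.1, the smallest that 3 against 3 libraries allow).

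Olr1, the receptor for oxidised low density lipoprotein also known as LOX-1, rose about 2-fold. It was at 15.4, 19.8 and 16.4 CPM in C7, C8 and C9, and at 29.5, 40.6 and 36.1 CPM in N129, N136 and N138. The groups did not overlap. The mean went from 17.2 ± 2.31 to 35.4 ± 5.58 CPM (SD, n = 3), 2.06-fold (a log2 change of 1.04 with SE 0.15, adjusted p = 0.00112 by edgeR).

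Colec12, a collagen-stalked receptor with a C-type lectin head that binds microbes and modified lipoproteins, was at 211, 230 and 207 CPM in C7, C8 and C9, and at 167, 197 and 160 CPM in N129, N136 and N138. The silicosis libraries all lay below the control libraries, by a small margin. The log2 fold change was -0.30 (SE 0.10) and missed the threshold by edgeR (adjusted p = 0.0512). Colec12 passed with DESeq2 (adjusted p = 0.0327), with limma-voom (adjusted p = 0.0456) and without N136 (adjusted p = 0.0128).

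The class B receptors did not pass. Cd36, which imports fatty acids and binds oxidised lipoproteins, was the most abundant of the 10, at 929, 908 and 827 CPM in C7, C8 and C9 and at 708, 917 and 764 CPM in N129, N136 and N138. N136 lay among the controls. The log2 fold change was -0.16 (SE 0.12, 95% interval -0.42 to 0.11, edgeR adjusted p = 0.335).

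Scarb1, the receptor for high density lipoprotein, was at 89.9, 100.8 and 91.1 CPM in C7, C8 and C9 and at 86.1, 120 and 73.8 CPM in N129, N136 and N138. N136 was above the controls and N138 below them. Its log2 fold change was -0.01 (SE 0.16, 95% interval -0.38 to 0.36), and its sign changed with the library left out, from -0.24 without N136 to 0.14 without N138. The interval does not show that the groups were alike, but it ends short of a 2-fold change in either direction.

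Stab1, stabilin-1, a large endocytic receptor of macrophages and some endothelium, was at 218, 224 and 173 CPM in C7, C8 and C9. In N129, N136 and N138 it was at 180, 184 and 196 CPM, inside the range of the controls. The log2 fold change was -0.13 (SE 0.11, 95% interval -0.39 to 0.12, edgeR adjusted p = 0.395).

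Cd163, the macrophage receptor for complexes of haemoglobin and haptoglobin, fell. It was at 8.99, 11.2 and 12.7 CPM in C7, C8 and C9, and at 5.24, 3.49 and 7.71 CPM in N129, N136 and N138. The groups did not overlap, with N138 nearest to the controls. The mean went from 11.0 ± 1.87 to 5.48 ± 2.12 CPM (SD, n = 3), 2.01-fold lower (a log2 change of -1.01 with SE 0.27, adjusted p = 0.0216 by edgeR). The call ended without C8 (adjusted p = 0.0617), without C9 (0.0747) or without N129 (0.0651), with log2 fold changes of -0.99, -0.89 and -0.98.

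Cd5l is a secreted protein of the same cysteine-rich domain family as Cd163, made by tissue macrophages and also called AIM. It was the rarest of the 10, with 20, 6 and 45 counts in C7, C8 and C9 (0.497, 0.144 and 1.17 CPM). N129 held 293 counts (7.64 CPM), whereas N136 held 62 (1.42 CPM) and N138 held 42 (1.17 CPM). N129 stood apart from the other silicosis libraries, and N138 was no higher than C9. The log2 fold change of 2.50 (SE 0.85) missed the threshold (edgeR adjusted p = 0.0515), and without N129 it was 1.11 (adjusted p = 0.290). It was called without C9 (log2 fold change 3.40, adjusted p = 0.0460), without N136 (0.0419) and without N138 (0.0236).

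N129 was also the library with the highest summed adipocyte markers. In the adipocyte list 4 of 5 tested genes rose, against 15.3% of all tested genes. The adipocyte sum lay between 15.7 and 28.8 CPM in control, and was 106, 53.8 and 54.3 CPM in N129, N136 and N138. The sixth marker, Lep, had 74 counts in N129 against 16 and 5 in N136 and N138; it was at 0 in C8 and was not tested. The part of adipose tissue in the Cd5l and Cd36 values was not tested.

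Mertk fell by a small and even amount. It was at 83.1, 85.3 and 90.2 CPM in C7, C8 and C9, and at 61.0, 58.4 and 71.4 CPM in N129, N136 and N138. The groups did not overlap. The mean went from 86.2 ± 3.67 to 63.6 ± 6.93 CPM (SD, n = 3) (0.737 times the control level, a log2 change of -0.44 with SE 0.10, adjusted p = 0.0107 by edgeR), and the call held with every other tool and scaling run and without any single library, with adjusted p up to 0.0475. It is under the 2-fold minimum.

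**Figure D2:**
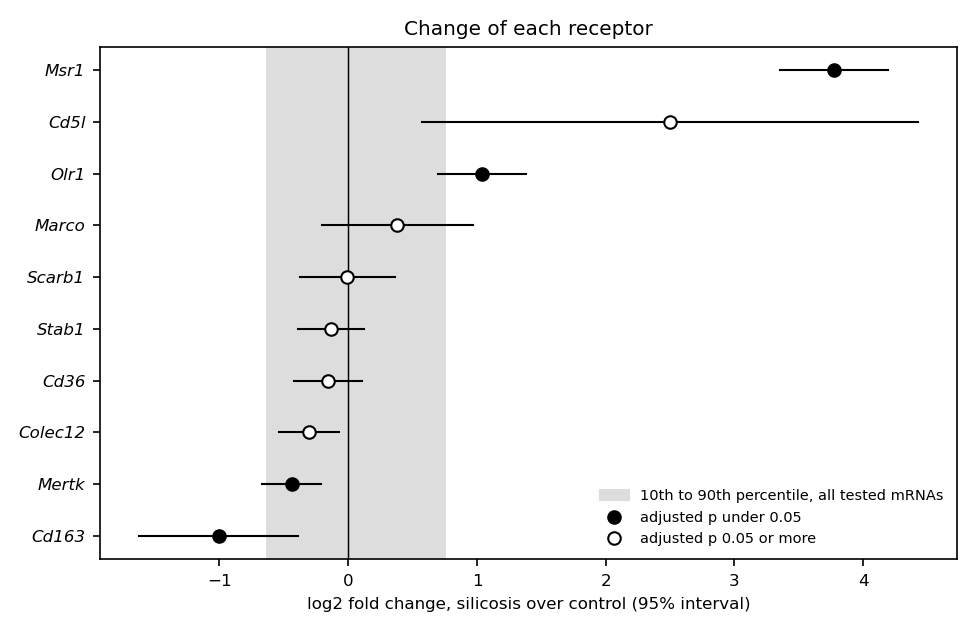
Log2 fold change of each receptor (silicosis over control) with its 95% interval; filled points passed the edgeR test at an adjusted p under 0.05, and the grey band spans the 10th to 90th percentile of all tested genes (-0.63 to 0.75). Msr1, Cd5l and Olr1 lie above the band and Cd163 below it, and the interval of Cd5l is the widest.

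In the authors' deposited table the 10 log2 fold changes were close to those above, for example 3.77 for Msr1, 1.03 for Olr1, -1.02 for Cd163 and -0.45 for Mertk. The direction label of the authors' deposited table is Up for Msr1, Olr1 and Cd5l and Down for Cd163. For all 17962 mRNAs with a label and a p-value, the label in the authors' deposited table matched an unadjusted p under 0.05 with a log2 fold change beyond 1 in size; with the adjusted p, 17784 matched. Cd5l thus carries the label Up in the authors' deposited table at an adjusted p of 0.0707. In the authors' deposited table Mertk, with an adjusted p of 0.00107, and Colec12, with 0.0333, carry the label Not, since their changes are under 2-fold.

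The silicosis libraries differed in which receptors they held most. Of the 3, N136 had the highest value for 6 receptors (Marco, Msr1, Cd36, Scarb1, Olr1 and Colec12) and N138 for 3 (Stab1, Cd163 and Mertk). N136 had the lowest value for Cd163 and Mertk. Spread within the silicosis group was smallest for Stab1 (coefficient of variation 4.60%) and largest for Cd5l (107%), followed by Cd163 (38.7%).

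Levels of different genes were set beside each other as CPM per kilobase of the longest GENCODE transcript. In control lung the order was Cd36 at 261 ± 15.9, Scarb1 at 37.2 ± 2.37, Colec12 at 26.9 ± 1.49, Stab1 at 25.6 ± 3.52 and Mertk at 20.0 ± 0.852 CPM per kilobase (SD, n = 3). Below these came Marco at 5.78 ± 2.01, Olr1 at 4.82 ± 0.647, Cd163 at 2.47 ± 0.421, Msr1 at 1.18 ± 0.244 and Cd5l at 0.297 ± 0.257 CPM per kilobase. The neighbours whose library ranges overlapped were Colec12 and Stab1, and Marco and Olr1. In silicosis Msr1 was at 16.2 ± 2.50 CPM per kilobase and moved from rank 9 to rank 5, where its range overlapped that of Mertk at 14.8 ± 1.61. Cd163 went from rank 8 to rank 10, with a range that overlapped that of Cd5l. With coding length in place of transcript length, an alternative added after the data were seen, Msr1 moved from rank 9 in the controls to rank 4 in silicosis. Within silicosis, coding length placed Stab1 at rank 6 instead of 3 and Olr1 at rank 5 instead of 7. In the controls Colec12 (97.0) then stood above Scarb1 (61.5), Mertk (28.9) above Stab1 (26.6) and Olr1 (15.8) above Marco (7.17), in CPM per kilobase of coding length.

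**Figure D3:**
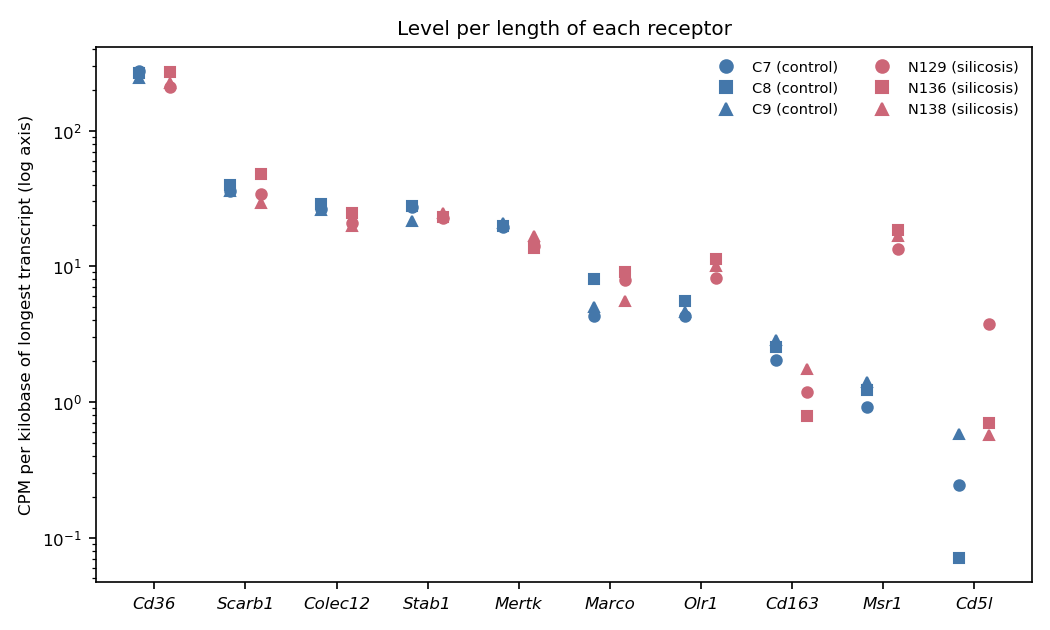
Level per length (CPM per kilobase of the longest transcript, log axis) of each receptor by library, ordered by the control mean. Cd36 lies highest in both groups, and the silicosis points of Msr1 reach the level of Mertk, where the control points of Msr1 lie near the bottom of the order.

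Markers of the cells that carry these receptors differed between the groups too. Among 10 pan-macrophage genes 8 rose and 0 fell, against 15.3% and 16.5% of all tested genes. Without C7 and without C8, 4 and 5 rose. Genes called higher over the whole table dropped as well, from 2421 to 1625 without C7, 1617 without C8 and 1652 without N129. The median log2 fold change of the 10 was 0.82, and 0.74 without C7 and 0.84 without C8. The summed level of the 10 lay between 3463 and 4074 CPM in control and between 6025 and 10944 CPM in silicosis, highest in N136. No marker was at 0. Among 12 alveolar macrophage markers 1 rose and 7 fell. The marker that rose was Itgax, at 80.2 to 93.7 CPM in control and 128 to 210 CPM in silicosis (edgeR adjusted p = 0.00494). Siglecf, a lectin of alveolar macrophages and eosinophils, was among those that fell. It had 14.95 CPM or more in control and 8.18 CPM or less in silicosis. The alveolar macrophage sum overlapped between groups, from 802 to 976 CPM in control and from 741 to 1069 CPM in silicosis. Chil3 was its largest part, with 277 to 363 CPM in control and 290 to 576 CPM in silicosis. Car4 and Krt19 were also among the markers that fell, and the cells behind their counts in whole lung were not resolved. Among 12 monocyte and interstitial macrophage genes 5 rose and 1 fell, and 2, 3 and 3 rose without C7, C8 and N129. Their sum went from between 438 and 525 CPM to between 544 and 623 CPM. Lyve1, the gene that fell, was the largest part of the control sum. It was at 207 to 245 CPM in control and 97.7 to 119 CPM in silicosis. Cd14, which rose, was at 16.5 to 26.5 CPM in control and 107 to 139 CPM in silicosis. Among 12 endothelial genes 0 rose and 10 fell, with sums of 5387 to 5504 CPM in control and 3022 to 3217 CPM in silicosis. How far cell numbers set the receptor values was not tested.

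Each receptor was then expressed as a log2 ratio to the pan-macrophage sum of the same library, 1 of 14 such ratios computed. The sum itself rose in silicosis, so a receptor whose CPM did not change comes out lower by this ratio. Scarb1, with a log2 fold change of -0.01 in CPM, differed by -1.07 in this way. A difference near that size is no sign that a receptor fell. Msr1 was higher relative to macrophage genes by 2.75 on the log2 scale, with no overlap between groups. Olr1 relative to macrophage genes differed by 0.01 (exact permutation p = 1), with values from -0.18 without N138 to 0.17 without N136. Marco was lower relative to macrophage genes by a difference of -0.63, Scarb1 by -1.07, Stab1 by -1.16, Cd36 by -1.19, Colec12 by -1.34, Mertk by -1.47 and Cd163 by -2.09, each without overlap. Cd5l differed by 1.38 with overlap (exact permutation p = 0.5, adjusted p = 0.538), and by 0.42 without N129, 0.51 without C8 and 2.12 without C9. The 8 ratios to macrophage genes without overlap had a two-sided exact permutation p of 0.1, the smallest possible, and an adjusted p of 0.117. Lyz2, lysozyme, which alveolar type 2 cells also make, supplied most of the macrophage sum, with 2791 to 3339 CPM in control and 4960 to 9366 CPM in silicosis. With the mean of log2 CPM over the list in its place, the difference was 0.28 for Olr1, -0.92 for Cd36, -0.79 for Scarb1, -1.06 for Colec12 and -0.35 for Marco.

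Relative to the endothelial sum, the 4 receptors that lung endothelium can also carry were higher in silicosis. The endothelial sum itself fell, so a receptor whose CPM did not change comes out higher by this ratio. In CPM none of the 4 rose, with log2 fold changes between -0.30 for Colec12 and -0.01 for Scarb1. The log2 difference was 0.64 for Cd36, 0.77 for Scarb1, 0.68 for Stab1 and 0.50 for Colec12, each without overlap (exact permutation p = 0.1, adjusted p = 0.117).

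**Figure D4:**
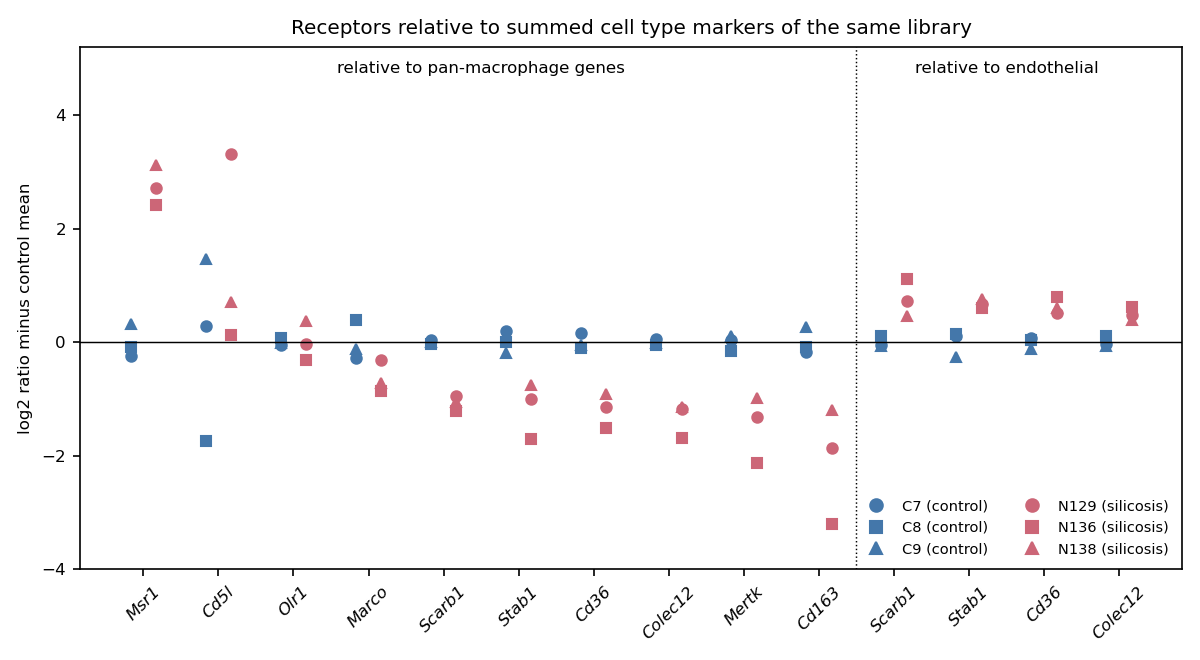
Log2 ratio of each receptor to the summed pan-macrophage genes (left of the dotted line) or endothelial genes (right) of the same library, minus the control mean of that ratio; points are libraries. In the 3 silicosis libraries on the left, Msr1 lies above 0 and Cd163, Mertk, Colec12, Cd36, Stab1 and Scarb1 lie below 0. On the right, Cd36, Scarb1, Stab1 and Colec12 lie above 0. The macrophage sum rose and the endothelial sum fell. A gene with unchanged CPM thus lies below 0 on the left and above 0 on the right.

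The other receptors of the scavenger classes were as divided as the 10. Of 12, 4 rose, 3 fell and 5 did not pass, against 15.3% higher and 16.5% lower among all tested genes. The median log2 fold change of the 12 was 0.17, against 0.02 over all tested genes. That median was 0.08 without N136 and 0.27 without N129. Megf10, an engulfment receptor, had the largest rise, from 0.926 ± 0.286 to 6.11 ± 3.66 CPM (SD, n = 3, with a log2 change of 2.72, SE 0.47, adjusted p = 0.00272 by edgeR). Its silicosis values were uneven, at 5.50, 2.80 and 10.04 CPM in N129, N136 and N138. The largest fall was in Ager, a receptor abundant on alveolar type 1 cells, from 1241 ± 106 to 601 ± 121 CPM (a log2 change of -1.05 with SE 0.15, adjusted p = 0.00101 by edgeR).

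Around Mertk, 6 of 16 members of the apoptotic cell clearance list rose and 1 fell, against 15.3% and 16.5% of all tested genes. The list median was 0.25 (0.11 without N129 and 0.15 without N136). The gene that fell was Gas6, the bridging ligand of Mertk, at 269, 332 and 297 CPM in C7, C8 and C9 and at 176, 211 and 207 CPM in N129, N136 and N138 (a log2 change of -0.59 with SE 0.11, adjusted p = 0.00412 by edgeR). Ligand and receptor were thus both lower, without overlap between groups. On the log2 scale the other ligand, Pros1 (protein S), differed by -0.14 (SE 0.14). The related receptor Axl differed by 0.31 (SE 0.12, edgeR adjusted p = 0.0869), and neither passed. Axl did pass with library totals only (0.41, edgeR adjusted p = 0.0215). Adgrb1, a receptor for phosphatidylserine, had the largest rise by fold but stayed under 1 CPM, from 0.150 ± 0.00652 to 0.676 ± 0.0545 CPM (a log2 change of 2.15 with SE 0.43). The number that fell was 2 by DESeq2, by limma-voom and without N136.

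In the lipid handling and sterol sensing list 8 of 16 rose and 2 fell, against 15.3% and 16.5% of all tested genes. The other 6 did not pass, and the list median was 0.30 (0.19 without N136). The number that fell was 1 with library totals only, without C8 and without N129. Fabp4, a fatty acid binding protein of adipocytes, endothelium and macrophages, rose most, from 6.06 ± 1.91 to 21.1 ± 9.40 CPM (a log2 change of 1.80 with SE 0.32, adjusted p = 0.00329 by edgeR), and was highest in N129 at 31.9 CPM. Vldlr, a lipoprotein receptor, fell by 0.59 on the log2 scale (SE 0.10). Pparg and Nr1h3, the LXR alpha gene, are nuclear receptors that regulate Cd36, Mertk and Cd5l. On the log2 scale Pparg was at 0.09 (SE 0.14) and Nr1h3 at -0.31 (SE 0.11, edgeR adjusted p = 0.0584), and neither passed. Nr1h3 did pass with DESeq2 (adjusted p = 0.0463) and by edgeR without C9 (adjusted p = 0.0335). Nr1h2, the LXR beta gene, was at 69.3, 75.4 and 71.7 CPM in the controls and at 56.8, 57.9 and 58.5 CPM in silicosis, without overlap. It fell by 0.32 on the log2 scale (SE 0.08, edgeR adjusted p = 0.0177), a call that was lost without C8 (adjusted p = 0.0785), without N129 (adjusted p = 0.0675) and with library totals only (adjusted p = 0.0755).

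The haemoglobin and iron clearance list went the other way from Cd163. The median was 0.89, against 0.02 over all tested genes. Of the 11 members 9 rose and 0 fell, against 15.3% and 16.5% of all tested genes. Hp, haptoglobin, whose complex with haemoglobin is the ligand of Cd163, rose from 436 ± 36.8 to 636 ± 93.3 CPM (a log2 change of 0.54 with SE 0.12, adjusted p = 0.00993 by edgeR, and 0.0502 without C7). Hmox1, which breaks down haem, was at 25.7, 23.1 and 26.7 CPM in C7, C8 and C9 and at 68.7, 111 and 67.7 CPM in N129, N136 and N138. Slc11a1, a metal ion transporter of phagosomes, rose most, from 12.4 ± 1.10 to 62.5 ± 15.8 CPM (a log2 change of 2.33 with SE 0.18). Ftl1 and Trf, which also rose, share 90.8% and 79.8% of their sequence windows of 50 bases with other genes, so their counts are uncertain.

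Membrane proteases release the outer part of several of these receptors, Cd163 and Mertk among them. This machinery had 4 of 6 members that rose and 1 that fell (median 0.33), against 15.3% and 16.5% of all tested genes. Without C7 and without N129, 2 rose. Genes called higher over the whole table also dropped in those fits, from 2421 to 1625 and 1652. Adam17, the main sheddase of Cd163 and Mertk, was at 87.7, 92.7 and 93.1 CPM in C7, C8 and C9 and at 148, 153 and 128 CPM in N129, N136 and N138 (a log2 change of 0.65 with SE 0.09, adjusted p = 0.00119 by edgeR). Adam8 had the largest rise, from 21.5 ± 4.17 to 105 ± 9.73 CPM (a log2 change of 2.29 with SE 0.15). Timp3, an inhibitor of Adam17, fell from 772 ± 51.9 to 458 ± 12.4 CPM (a log2 change of -0.75 with SE 0.09), but shares 36.3% of its windows with other genes, Syn3 foremost. Shedding itself was not measured.

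**Figure D5:**
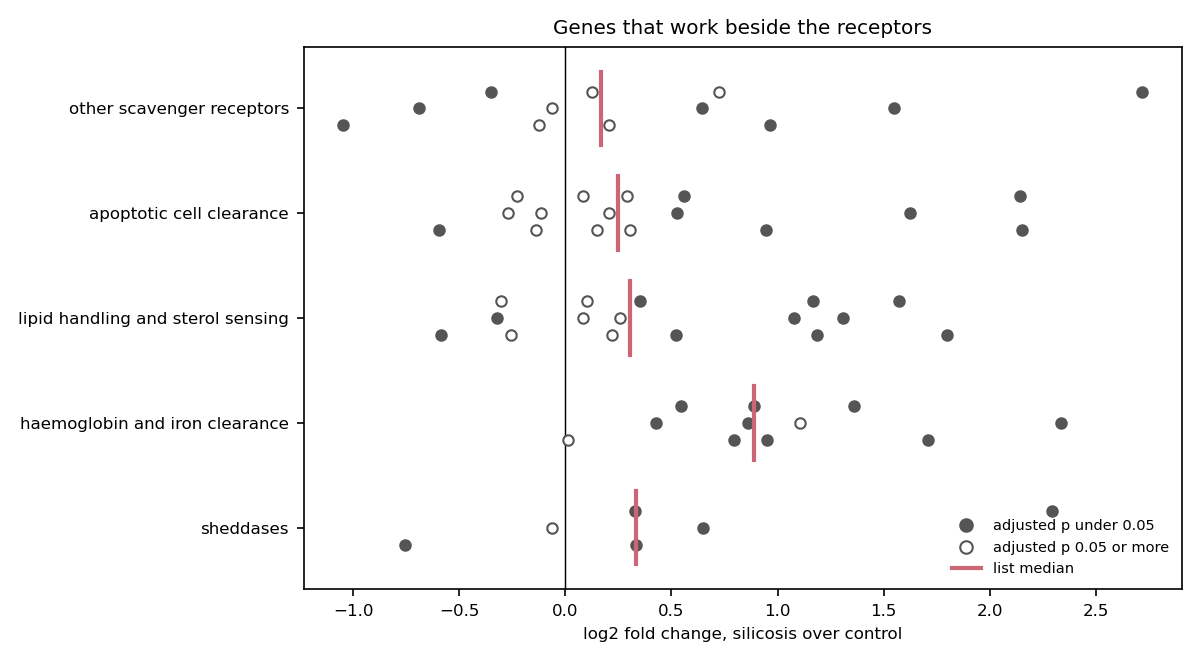
Log2 fold change (silicosis over control) of each gene in the 5 lists of genes that work beside the receptors; filled points passed the edgeR test at an adjusted p under 0.05 and red bars are list medians. The list of haemoglobin and iron clearance has the highest median, 0.89, and no filled point below 0.

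The genes of these lists and of the cell type lists whose log2 CPM over the 6 libraries were most like each receptor are given as a description. Each r is the highest found over all genes of these lists, so the selection favours a high value. For receptors whose groups overlapped, Scarb1 was most like Sftpc (Pearson r 0.97), Cd5l most like Fabp4 (0.93), Cd36 most like Rxra (0.88), Stab1 most like Pros1 (0.88) and Marco most like Col3a1 (0.82). Sftpc, like Scarb1, was highest in N136 and lowest in N138. Cd5l and Fabp4 were both highest in N129, at 7.64 and 31.9 CPM. The groups of Fabp4, Rxra and Col3a1 stood apart, so the r values with them can include the group difference. With the group means removed, r was 0.99 for Cd5l with Fabp4, 0.85 for Cd36 with Rxra and 0.86 for Marco with Col3a1. Where the groups of the receptor itself stood apart no pooled r is given. The nearest genes there were Cd300lf for Msr1, Slc40a1 for Olr1, Ager for Colec12, Pdgfra for Cd163 and Siglecf for Mertk. Cd300lf, a lipid-sensing receptor of myeloid cells, was at 11.3, 13.8 and 14.8 CPM in C7, C8 and C9 and at 49.0, 59.9 and 67.0 CPM in N129, N136 and N138.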

How the data were processed

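Whole-lung RNA of 3 control and 3 silicosis libraries was compared for 10 receptor mRNAs. The deposited mRNA table holds raw counts per gene and library, made by the authors and not normalised; it gives symbols without positions. Per the submitters' processing notes, which give no role or order, the build was GRCm39 and the tools were featureCounts 2.0.0, HISAT2, Bowtie2, DESeq2 1.36.0 and Trimmomatic 0.39. For the annotation and the strand setting, the sources used here give nothing. The authors' deposited comparison table holds log2 fold changes, p-values and adjusted p-values, and, per the file headers, a Wald score and a mean normalised signal per gene, which were not used.

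The whole table was fitted with edgeR 4.0.16 in R 4.3.3 (filterByExpr, TMM, quasi-likelihood F test, two-sided). The filter kept 15808 genes with 99.98% of the counts. SE is the log2 fold change divided by the square root of F. Single values were compared by exact permutation over libraries. The fit was tested on simulated data. Each receptor's longest GENCODE M21 transcript (GRCm38) was cut into windows of 50 bases every 5 bases; shared windows were at most 5.02%, for Colec12. The members and all lists were chosen with earlier results of these data known. Named genes were the 10 members, the called extremes of each list, 8 partners (Gas6, Pros1, Axl, Pparg, Nr1h3, Hmox1, Hp and Adam17) and the nearest gene of each member; other genes were singled out after their values were seen. Markers of lymphatic endothelium (2 of 6 higher, 1 lower), fibroblasts (4 of 10 higher, 2 lower), alveolar type 2 cells (0 of 8 higher, 1 lower) and neutrophils (4 of 8 higher, 0 lower) were also counted. Of all tested genes 15.3% were higher and 16.5% lower. Alternatives were DESeq2 size factors, library totals, no filter, DESeq2 1.42.0, limma-voom 3.58.1, a 2-fold minimum and each library left out.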

Additional observations from a re-analysis of the deposited data

How the results depend on the processing

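The number of receptors that fell was 1 with a 2-fold minimum and between 1 and 3 with 1 library left out, against 2. The number that rose stayed at 2 or 3. Msr1, Olr1 and Mertk kept their calls under the 11 alternatives refitted for each, and Marco, Cd36, Scarb1 and Stab1 were called under none. With 1 library left out the log2 fold change of Cd163 lay between -1.33 and -0.77, that of Cd5l between 1.11 and 3.40 and that of Colec12 between -0.41 and -0.24. Cd5l was called with library totals only (2.61, adjusted p = 0.0437) and with no filter on low counts (2.49, adjusted p = 0.0478). Colec12 was called with DESeq2 (log2 fold change -0.31) and limma-voom (-0.31). The cause of these changes was not tested. Relative to the mean of log2 CPM of macrophage genes the differences were -0.92 for Cd36, -0.79 for Scarb1, 0.28 for Olr1 and -1.06 for Colec12, in place of -1.19, -1.07, 0.01 and -1.34; that measure gives Lyz2 no more weight than other genes. With library totals only, the median of all tested genes was 0.13 in place of 0.02, with 3439 higher and 1936 lower in place of 2421 and 2602, and Scarb1 was at 0.09. No paired analysis was possible because the groups share no replicate number. Coding length from a protein table was not run, since that table was not used here; GENCODE coding lengths were used. Depth limits Cd5l, with 6 counts in C8, more than the other receptors, whose lowest count in any library was 135.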
